A study of Mus musculus with 2 samples.

Results

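The enzymes that build triglyceride from glycerol 3-phosphate were examined in RNA-seq of the whole mouse omentum after treatment with diphtheria toxin (DT). The group held 9 genes, Gpd1, Gpam, Agpat2, Agpat3, Lpin1, Lpin2, Lpin3, Dgat1 and Dgat2, chosen by gene symbol for their place in the pathway from the 24346 symbols listed in each library. There were 2 libraries, 1 for wild-type (WT) and 1 for Postn-DTR, and both genotypes had received DT 5 days before. Postn-DTR mice, made in C57BL/6 zygotes, are heterozygotes with a diphtheria toxin receptor cassette in the first coding exon of 1 copy of Postn, so that DT kills cells that use the Postn promoter, among them the Aldh1a2+ fibroblastic reticular cells (FRCs) of omental milky spots. The promoter is also used by mesenchymal cells of other organs, and the number, age and sex of the mice behind each library were not stated.

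Triglyceride is the form in which fat cells store fatty acids. GPD1 reduces dihydroxyacetone phosphate from glycolysis to glycerol 3-phosphate, the backbone. A glycerol 3-phosphate acyltransferase (GPAT) then adds the first fatty acid to give lysophosphatidate, and a 1-acylglycerol 3-phosphate acyltransferase (AGPAT) adds the next to give phosphatidate. Lipins remove the phosphate to give diacylglycerol, and a diacylglycerol acyltransferase (DGAT) adds the last fatty acid. The omentum is a visceral fat depot, where this pathway is known from adipocytes, and loss of AGPAT2 in humans causes a congenital lipodystrophy.

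Values are FPKM, the fragments of a gene scaled to transcript length and to library size. Because there was 1 library for each genotype, the spread between mice is unknown, the genotypes could not be tested against each other and no p-value is given. The change of a gene is the difference of log2(FPKM + 1), Postn-DTR minus WT, whereas fold values are ratios of FPKM with no pseudocount. All 9 enzymes passed the minimum of a mean FPKM of 1 over both libraries, as did 13127 genes in all. A gene was called lower or higher when its change reached 2-fold. Ranges given with a fold are 95% exact binomial intervals on estimated reads, and they cover counting error only, not the difference between mice.

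Some features of the libraries bear on every value here. Postn had 58.3 FPKM in the WT library and 16.2 in the Postn-DTR library. Total FPKM was 542190 for WT, from an estimated 22900000 fragments, and 671882 for Postn-DTR, from 24000000. Of 20 pancreatic acinar markers 19 were expressed in WT, with a summed FPKM of 12227 that was 2.26% of all FPKM, against 20.4 in Postn-DTR, where Try4 and Pla2g1b were listed at 0. Amy2a5 was at 0 in both. The part of this tissue in the enzyme values was not tested. Xist and 4 male-specific genes were present in both libraries, with Xist at 7.71 and 15.7 and the male-specific genes summing to 40.1 and 20.6. Xist was thus higher and the male-specific sum lower in Postn-DTR. A difference in the mix of sexes cannot be told apart from genotype here, and its part in the enzyme values was not tested. Bulk tissue cannot tell fewer cells of a type from less RNA per cell.

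Of the 9 enzymes, 3 were at least 2-fold lower in Postn-DTR and 0 were at least 2-fold higher. Over all genes compared, 3.12% were lower and 3.88% were higher by the same measure. That balance depended on the scaling, with 410 lower and 509 higher genes as deposited, 792 and 307 at equal totals (acinar genes left out and the rest scaled to the same sum), and 170 and 1479 when centred on the adipocyte marker median, while the enzyme counts stayed at 3 and 0 under each. The lower enzymes were Dgat2, Agpat2 and Gpd1, which were the 3 most abundant of the group in WT. Among the 382 genes that reached 200 FPKM in WT, a background chosen after the data were seen, 9.95% were lower and 4.97% higher. This background includes acinar genes nearly absent from Postn-DTR, such as Ctrb1, at 2490 and 1.51, and Cela2a, at 1628 and 0.351. It is also selected on the WT value, which favours genes that are lower in Postn-DTR. The median change of the 9 enzymes was -0.21, against 0.02 for all genes compared. It was -0.55 against -0.28 at equal totals, and 0.25 against 0.48 when centred on adipocyte markers. The other 6 enzymes had changes from -0.48 to 0.49, with a median of 0.13. All 9 together summed to 1222 FPKM in WT but 440.5 in Postn-DTR. Dgat2, Agpat2 and Gpd1 together went from 1012 to 249, whereas the other 6 together were at 209.6 and 191. The 3 and the 6 were parted by their changes, so this contrast and the median of the 6 follow from the split and are descriptions only.

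**Figure D1:**
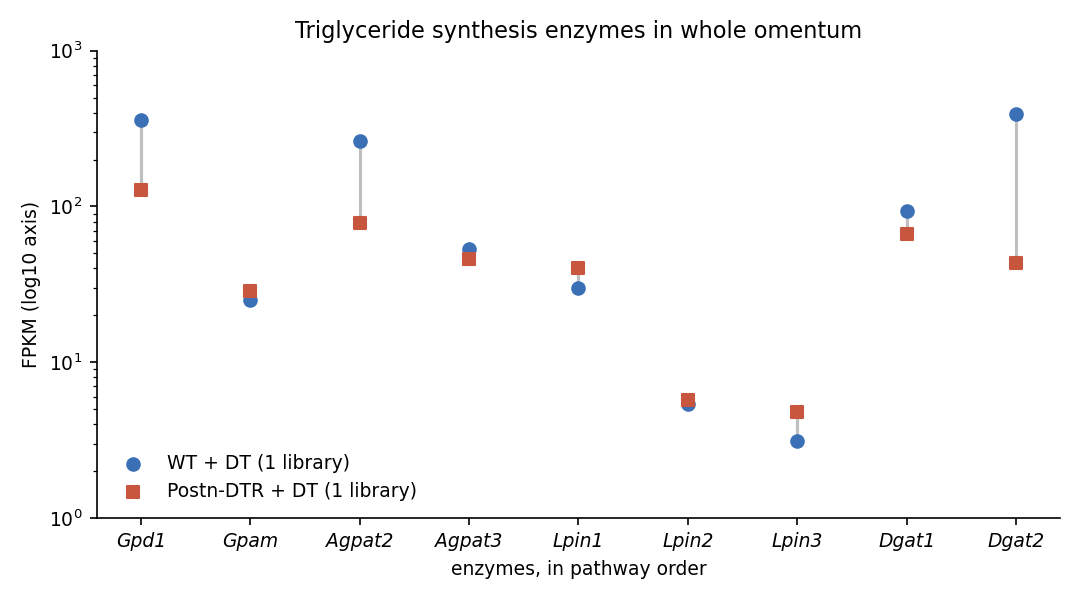
FPKM of the 9 enzymes (log10 axis) in the WT library (circles) and the Postn-DTR library (squares), in pathway order, with 1 library per genotype and therefore no error bars. Dgat2, Agpat2 and Gpd1 are far apart between the libraries, at 391 and 43.2, 263 and 78.3, and 358 and 128, and the symbols of the other 6 lie close together.

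**Figure D2:**
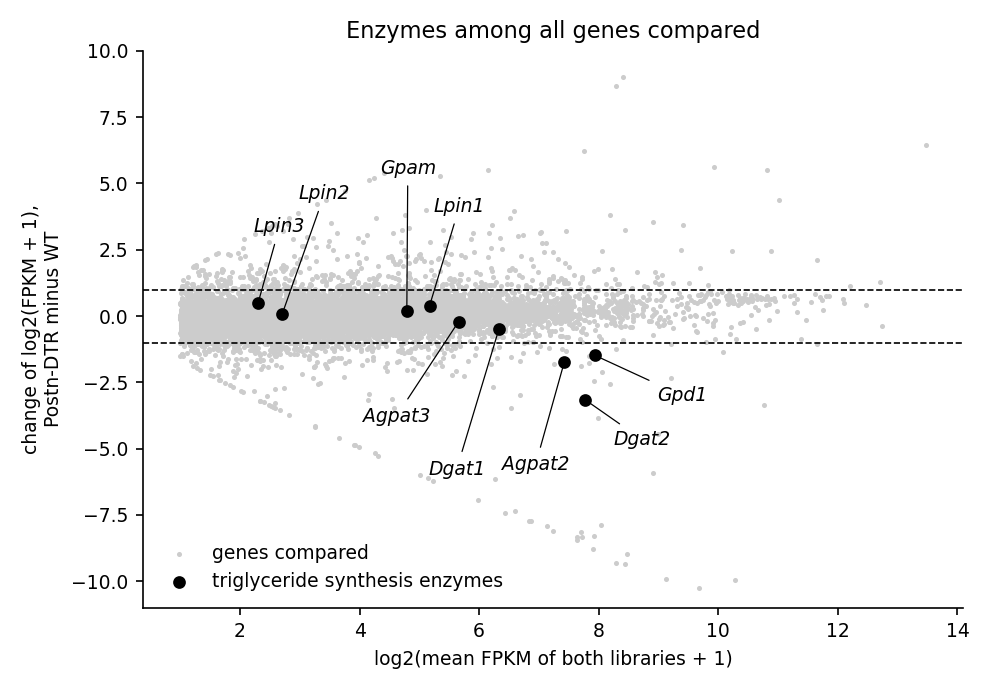
Difference in log2(FPKM + 1) between Postn-DTR and WT against the mean level for all 13127 genes compared (grey) and the 9 enzymes (black), with dashed lines at 2-fold. Dgat2 lies at -3.15, Agpat2 at -1.74 and Gpd1 at -1.48, and the other 6 enzymes lie between the lines.

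The last acylation was examined first, because it held the most negative change of the group. DGAT2 (Dgat2, ENSMUSG00000030747, chromosome 7, 99153658 to 99182719 on the minus strand, GRCm38) and DGAT1 (Dgat1, ENSMUSG00000022555, chromosome 15, 76502015 to 76511953 on the minus strand) catalyse the same reaction but belong to unrelated protein families. Dgat2 was the most abundant enzyme in WT, at 391 FPKM, and stood at 43.2 FPKM in Postn-DTR, 9.05-fold lower (8.65 to 9.47). Its change of -3.15 was among the most negative of all, with 0.373% of genes compared further down. Dgat1 was at 92.9 and 66.3, or 1.40-fold lower (1.33 to 1.48), a change of -0.48. The levels of this pair thus traded places. The FPKM of Dgat2 was 4.20 times that of Dgat1 in WT, and in Postn-DTR that of Dgat1 was 1.53 times that of Dgat2. As a share of the summed FPKM of the pair, Dgat2 went from 80.8% to 39.5%. Such a share is taken within a library and does not depend on scaling between libraries. The sum itself was 484 in WT and 109 in Postn-DTR.

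Monoacylglycerol acyltransferases, relatives of DGAT2 that make diacylglycerol without phosphatidate, were read beside it. Mogat1 went from 6.11 to 0.992, or 6.16-fold lower (3.99 to 10.2), a change of -1.84. Mogat2 was under the expression minimum, with 1.04 in WT and 0.0793 in Postn-DTR. This corresponded to about 37.6 and 3.01 estimated reads, a ratio of 13.1 (4.21 to 67.2). Mogat2 is the neighbour of Dgat2, 36.4 kb away on the same strand.

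At the addition of the next fatty acid, Agpat2 (ENSMUSG00000026922, chromosome 2, 26593057 to 26604417 on the minus strand) reached 263 FPKM in WT but 78.3 FPKM in Postn-DTR. It was 3.36-fold lower (3.21 to 3.52), with a change of -1.74 and 0.945% of genes further down. Agpat2 shares 64 exonic bases with Egfl7 on the opposite strand, and whether reads were counted by strand was not stated. Agpat3 (ENSMUSG00000001211, chromosome 10, 78269178 to 78352489 on the minus strand) was at 53.1 and 45.8, or 1.16-fold lower (1.07 to 1.25). Its change of -0.21 became 0.25 when centred on adipocyte markers, so it had no stable direction. Of the other enzymes with this activity, Agpat1 was at 49.8 and 35.8, Agpat4 at 13.4 and 22.1, and Agpat5 at 6.31 and 8.26. None of these 3 reached 2-fold. Agpat2 made up 68.2% of the summed FPKM of the 5 AGPATs in WT and 41.2% in Postn-DTR. Agpat3 held 13.8% and 24.1% of that sum. Agpat2 remained the most abundant AGPAT in both libraries, with an Agpat2 to Agpat3 ratio of 4.96 in WT and 1.71 in Postn-DTR.

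The 250 bases before the start sites of Agpat2 and Agpat3 are shown because these enzymes share a reaction and differed in change. They come from RefSeq on GRCm38.p6, whose promoter table matched Gpam, Agpat2, Agpat3, Lpin1, Lpin2 and Lpin3, and are printed 5′ to 3′ on the strand of the gene. The Agpat2 window is chr2:26604418-26604667 and the Agpat3 window is chr10:78351701-78351950, both for the minus strand. The Agpat3 window lies inside the GENCODE span of the gene given above, since the RefSeq start it precedes is downstream of the outermost GENCODE start. Capitals mark matches on either strand. The motifs searched were the E-box, spelled CACGTG. The sterol regulatory element was spelled TCACNCCAC. The GC box was spelled GGGCGG. The C/EBP element was spelled TTGCNNAA, and the CCAAT box is spelled by its name.
Agpat2: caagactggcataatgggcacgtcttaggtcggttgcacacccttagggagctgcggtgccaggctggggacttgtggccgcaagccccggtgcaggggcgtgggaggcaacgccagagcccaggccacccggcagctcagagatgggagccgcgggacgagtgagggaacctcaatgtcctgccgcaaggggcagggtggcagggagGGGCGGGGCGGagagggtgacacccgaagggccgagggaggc
Agpat3: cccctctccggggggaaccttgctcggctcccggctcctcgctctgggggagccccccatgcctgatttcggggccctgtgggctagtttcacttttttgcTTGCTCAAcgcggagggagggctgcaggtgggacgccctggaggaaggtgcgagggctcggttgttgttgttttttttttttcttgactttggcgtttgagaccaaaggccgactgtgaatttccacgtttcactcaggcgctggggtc
The Agpat2 window held 2 overlapping GC boxes, at -42 and -37 from the start, and the Agpat3 window held 1 C/EBP element, at -149. Among 32851 windows of this length, 32.7% held a GC box, 33.8% a CCAAT box and 9.56% a C/EBP element. The E-box, found in 6.02% of windows, and the sterol regulatory element, found in 1.05%, had no match in the Agpat2, Agpat3, Gpam, Lpin1, Lpin2 or Lpin3 windows. GC content was 69.2% in the Agpat2 window and 59.6% in the Agpat3 window, against a median of 52.4%. These matches describe letters and do not show binding.

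The supply of the backbone differed between its enzymes. Gpd1 (ENSMUSG00000023019, chromosome 15, 99717515 to 99725005 on the plus strand) went from 358 FPKM in WT to 128 FPKM in Postn-DTR. It was 2.80-fold lower (2.73 to 2.87), with a change of -1.48 and 1.28% of genes further down. Gm16537, an antisense gene of the annotation, shares 384 exonic bases with Gpd1. Gpd1l, a homologue of Gpd1, was at 20.0 and 20.4, a ratio of 1.02 (0.958 to 1.09). Gpd1 therefore made up 94.7% of the pair in WT and 86.3% in Postn-DTR. The supply list held 5 other genes, and not all of them produce glycerol 3-phosphate. Of the 5, 1 was at least 2-fold lower and 0 higher, with a median change of -0.55. Aqp7, the adipocyte glycerol channel, was the lower gene, at 13.2 and 5.68, or 2.33-fold (2.01 to 2.71). Gpd2, the mitochondrial enzyme that oxidises glycerol 3-phosphate, was at 11.8 and 5.67. Its FPKM was 2.09-fold lower (1.91 to 2.28), but with the pseudocount its change of -0.94 missed the limit. Pck1, which feeds glyceroneogenesis, was at 139 and 138. Tpi1, the glycolytic isomerase beside dihydroxyacetone phosphate, was at 183 and 124, and glycerol kinase (Gk, listed as Gyk) at 1.45 and 1.69.

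No enzyme of the first acylation that was compared reached 2-fold. Gpam (ENSMUSG00000024978, chromosome 19, 55067268 to 55127238 on the minus strand), which encodes the mitochondrial GPAT1, had 24.9 FPKM in the WT library and 28.5 in the other, a ratio of 1.14 (1.07 to 1.22). Its change of 0.19 became -0.14 at equal totals. The GPATs of the endoplasmic reticulum, listed under their older symbols Agpat9 and Agpat6, were Gpat3, at 21.4 and 14.4, and Gpat4, at 30.4 and 36.6. Gpat2 was under the expression minimum, at 0.212 and 0.0171. The 4 GPATs together summed to 76.9 FPKM in WT against 79.5 in Postn-DTR, and Gpam held 32.4% and 35.8% of it. The ratio of these sums was 1.03, whereas the summed FPKM of the GPD pair, the AGPATs and the DGATs was 2.55-fold, 2.03-fold and 4.42-fold lower.

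The lipins were the members with values above WT in Postn-DTR under the deposited scaling, together with Gpam. Lipins also act in the nucleus as transcriptional co-regulators. Lpin1 (ENSMUSG00000020593, chromosome 12, 16535669 to 16610966 on the minus strand), the main lipin of adipose tissue, was at 30.2 and 40.0, a ratio of 1.33 (1.25 to 1.41) and a change of 0.40. Lpin2 (ENSMUSG00000024052, chromosome 17, 71182560 to 71249817 on the plus strand) was at 5.35 and 5.71, a ratio of 1.07 (0.961 to 1.19) that counting error alone could give. Its change of 0.08 turned to -0.21 at equal totals. Lpin3 (ENSMUSG00000027412, chromosome 2, 160880670 to 160906002 on the plus strand), the least abundant of the 9 enzymes, was at 3.10 and 4.76, a ratio of 1.53 (1.30 to 1.82) and a change of 0.49. Lpin1 and Lpin3 kept a positive change under all 6 alternatives, the smallest being 0.063 and 0.22, and neither reached 2-fold under any of them. Lpin1 made up 78.1% of the summed lipin FPKM in WT and 79.2% in Postn-DTR, Lpin2 13.9% and 11.3%, and Lpin3 8.04% and 9.44%. The subunits of the phosphatase that dephosphorylates lipins were Ctdnep1, at 70.2 and 71.2, and Cnep1r1, at 17.2 and 19.2.

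**Figure D3:**
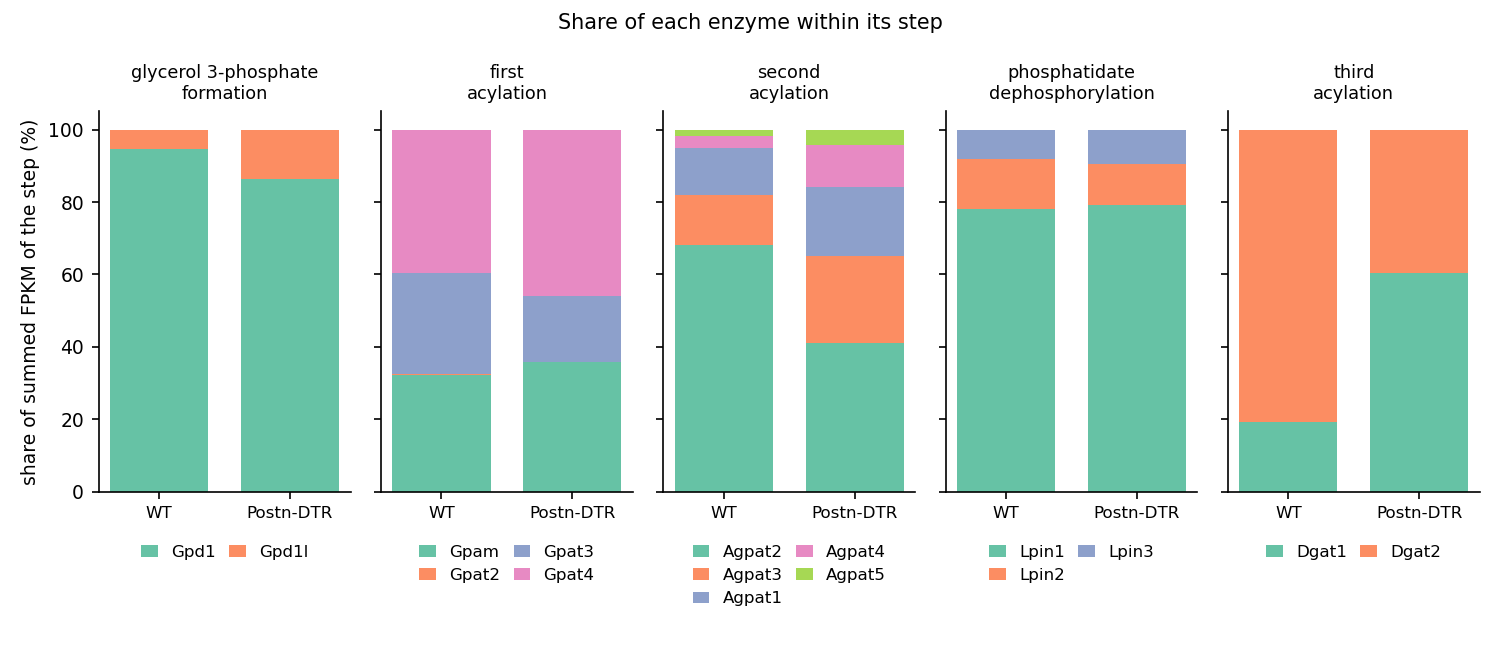
Share of each enzyme in the summed FPKM of its step (%), with 1 bar for the WT and 1 for the Postn-DTR library and no replicates. The Dgat2 share goes from 80.8% to 39.5% and the Agpat2 share from 68.2% to 41.2%, while the lipin shares are nearly alike.

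In order of level, WT had Dgat2, Gpd1, Agpat2, Dgat1, Agpat3, Lpin1, Gpam, Lpin2 and Lpin3. In Postn-DTR Dgat2 was in position 5, after Gpd1, Agpat2, Dgat1 and Agpat3, and the order of the other 8 enzymes was as in WT. Whether neighbours in this order differ beyond the spread between mice could not be measured.

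To see how far the adipocyte content of the libraries moved with these values, adipocyte markers were read in the same way. All 12 were expressed in both libraries, summing to 16274 FPKM in WT against 15354 in Postn-DTR. Of the 12, 9 had a negative change and 3 a positive change, among them the abundant Fabp4, and the median change was -0.46. At the 2-fold limit 2 were lower and 0 higher. The lower ones, named after their values were seen, were Slc2a4, at 44.8 and 13.7, and Pparg, at 59.1 and 27.3. Cfd was at 7764 and 5976, Fabp4 at 4879 and 6519, Adipoq at 955 and 636, and Retn at 940 and 641. Dgat2 and Agpat2 had a more negative change than each of the 12 markers, and Gpd1 than 11 of 12, Slc2a4 being the exception. Relative to the median of the markers the changes were -2.68 for Dgat2, -1.27 for Agpat2 and -1.01 for Gpd1, and -0.02 for Dgat1. The first 3 stayed past 2-fold, but Gpd1 only at the edge of the limit. The marker changes themselves ranged from -1.64 to 0.45. The 8 macrophage markers all had values above WT in Postn-DTR, with 4 at least 2-fold higher, a median change of 1.14 and a summed FPKM of 2911 and 4859. Itgam was at 46.8 and 252, Cd68 at 114 and 369, Lyz2 at 2459 and 3563, and Csf1r at 158 and 219, and the other genes past 2-fold were Adgre1 and Cd14. The 4 mesothelial markers went in both directions, with a summed FPKM of 363 and 342 and a median change of 0.03. Upk3b was at 212 and 182, Wt1 at 52.1 and 63.2, and Msln at 37.2 and 67.9. Lrrn4, at 62.7 and 29.2, was the 1 marker at least 2-fold lower. The part of the macrophage and adipocyte content in the enzyme values was not tested. Removing the acinar genes and equalising the totals gave changes of -3.49 for Dgat2, -2.08 for Agpat2 and -1.82 for Gpd1. That setting scales all genes of a library by the same factor, and the median of all genes compared moved from 0.02 to -0.28. It therefore does not measure the part of pancreatic tissue in the enzyme values.

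**Figure D4:**
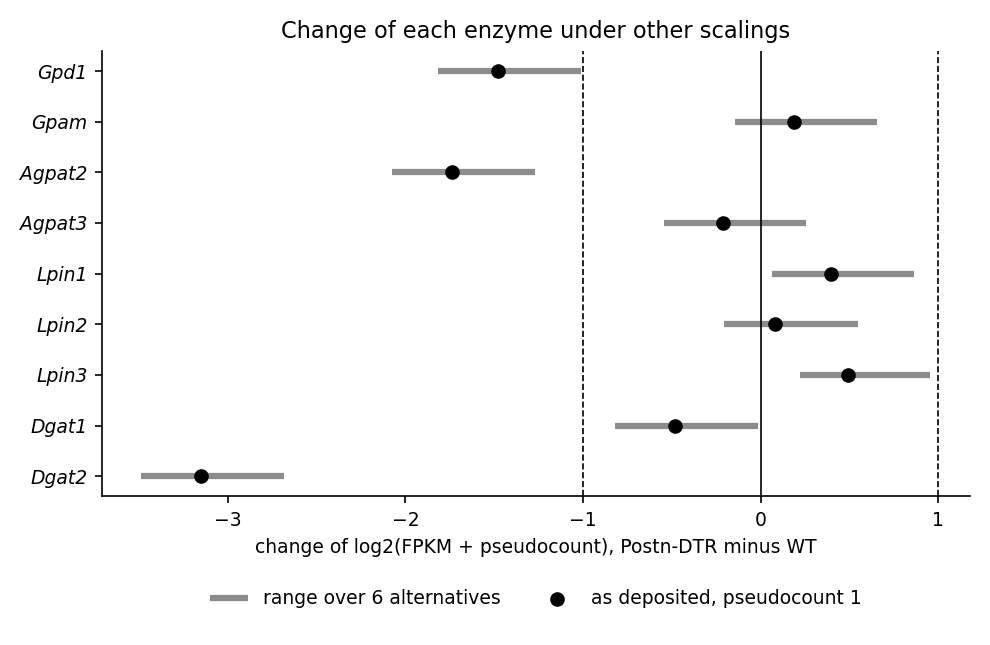
Difference in log2(FPKM + pseudocount) between Postn-DTR and WT for each enzyme as deposited (point) and its lowest and highest value over 6 alternatives of pseudocount and scaling (bar), with dashed lines at 2-fold. The bars of Dgat2 (-3.49 to -2.68), Agpat2 (-2.08 to -1.27) and Gpd1 (-1.82 to -1.01) lie beyond the lower line, and those of Gpam, Agpat3 and Lpin2 cross 0.

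Genes of fatty acid supply to this pathway were compared as lists. Of 12 genes of fatty acid synthesis and desaturation, which include the transcription factors Srebf1 and Mlxipl and the lipogenic regulator Thrsp beside the enzymes, 8 were at least 2-fold lower and 0 higher, with a median change of -2.46 against -0.21 for the triglyceride enzymes. Scd1 was at 3168 and 308, Thrsp at 989 and 195, Fasn at 978 and 44.0, and Acly at 497 and 82.3. This list reached from -4.44 to 0.05, a range wide enough to hold many genes, and the Dgat2 change of -3.15 was more negative than the list median. Fatty acids must be joined to coenzyme A before they are esterified. Under the deposited scaling, the only one used for this list, 0 of the 4 acyl-CoA synthetases compared reached 2-fold in either direction. The most negative of their changes was near enough to the limit for that count to depend on scaling. Acsl1, the main adipocyte form, was at 208 and 123, a change of -0.75, Acsl5 at 45.7 and 41.9, Acsl4 at 12.0 and 19.2, and Acsl3 at 3.83 and 2.75.

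Downstream of DGAT, triglyceride is packed into lipid droplets and released from them by lipases. Under the deposited scaling, the only one used for these 2 lists, 0 of 9 lipid droplet genes compared were at least 2-fold lower and 1 was higher. Their median change was 0.17. Their changes reached from -0.91 to 1.22, near enough to the limits on both sides for the counts to depend on scaling. The higher gene was Plin2, a droplet coat protein of many cell types including macrophages, at 167 and 390. Cidec, which fuses droplets, was at 513 and 592, Plin1, the adipocyte coat protein, at 321 and 189, and Bscl2, which encodes seipin, at 179 and 160. None of the 6 hydrolysis genes reached 2-fold by the change with a pseudocount of 1, and their median change was 0.03. Pnpla2, the first lipase of the cascade, was at 362 and 495, Lipe at 279 and 139, Ces1d at 187 and 197, and G0s2, an inhibitor of PNPLA2, at 125 and 126. Lipe missed the limit narrowly, with a change of -0.997, but its FPKM ratio with no pseudocount passed it. The hydrolysis count therefore depended on the pseudocount, and was near enough to the limit to depend on scaling.

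**Figure D5:**
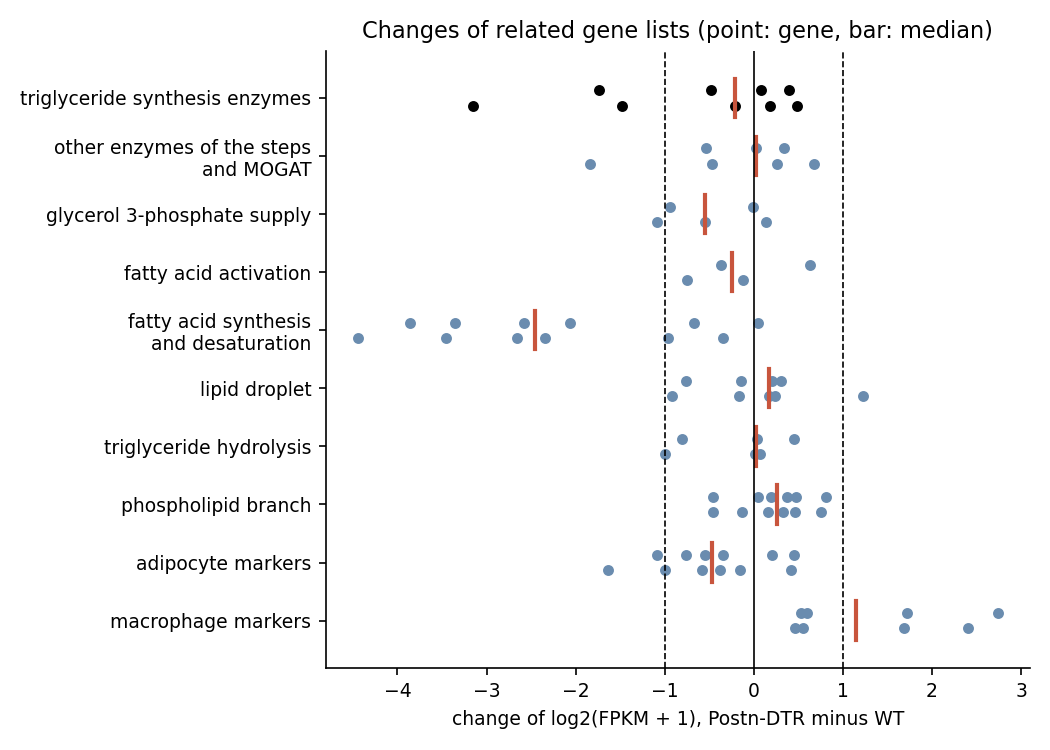
Difference in log2(FPKM + 1) between Postn-DTR and WT of each gene compared (points) and the median of each list (bars), with dashed lines at 2-fold. Fatty acid synthesis and desaturation has its median at -2.46 and the triglyceride enzymes at -0.21, with Dgat2, Agpat2 and Gpd1 apart from the other 6 enzymes.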

How the data were processed

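RNA of whole omenta was sequenced from 1 WT and 1 Postn-DTR library, grouped by the genotype label. Per the labels, RNA extraction used a miRNeasy kit and library preparation a stranded TruSeq kit for mRNA. The authors deposited FPKM with 1 value per gene symbol and library. The submitters' processing notes list TopHat2 2.1.1, Bowtie2 2.2.8, SAMtools 0.1.18, Cuffdiff 2.2.1 and the build mm10, without roles, and the annotation is not given in the sources used here. All 9 enzymes and 23310 of 24346 symbols matched GENCODE M21 (GRCm38, the same assembly), which gave positions and lengths.

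Changes were computed with pandas 2.3.3 at a pseudocount of 1, over genes whose FPKM averaged at least 1. Depth was estimated from genes with 1 annotated transcript and FPKM under 0.5, assuming whole reads. At the chosen depth and a length reduction of 200 bases, 78.4% of 487 low values in WT and 79.2% of 437 in Postn-DTR lay within 0.1 of a whole read, a fit to the same values and not an independent check. Reads of a gene use its shortest principal transcript, so they are approximate. Scripts were tested on simulated data.

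The members and gene lists were chosen with earlier results of these data known. The named genes are the 9 enzymes, the other enzymes of their steps, the supply genes, Postn, and up to 4 genes of highest mean FPKM from every other list. Outside this rule, Slc2a4, Pparg, Adgre1, Cd14, Try4, Pla2g1b, Amy2a5, Srebf1 and Mlxipl were named after their values were seen, to spell out a small count, a value of 0 or what a list holds. The alternatives were 2 pseudocounts, 2 filters, 4 scalings and 2 fold limits. They were applied to the enzymes and to all genes compared. Counts past 2-fold in every other list are under the deposited scaling only.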

Additional observations from a re-analysis of the deposited data

How the results depend on the processing

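The count of 3 lower enzymes was the same under every alternative except a 3-fold limit, where it was 2, without Gpd1. When centred on adipocyte markers Gpd1 was barely past 2-fold, at -1.01. No enzyme was called higher under any alternative. The median change of the enzymes was -0.48 with a mean FPKM of at least 10, which left 7 of the 9, -0.55 with acinar genes removed and totals made equal, and 0.25 when centred on the adipocyte marker median, and these settings moved the median of all genes to 0.09, -0.28 and 0.48. Over all genes, the count of 410 lower genes was 643 with a pseudocount of 0.1, 168 with a pseudocount of 5, 173 with a mean FPKM of at least 10, 792 at equal totals, 170 when centred on adipocyte markers, 1160 at 1.5-fold and 153 at 3-fold. For higher genes, 509 as deposited, it was 287 with a pseudocount of 5, 303 with a mean FPKM of at least 10, 307 at equal totals, 1479 when centred on adipocyte markers, 1294 at 1.5-fold and 199 at 3-fold. Higher genes made up 55.4% of all calls as deposited, 47.1% at an equal 75th percentile, 27.9% at equal totals and 89.7% when centred on adipocyte markers. The sign turned for Gpam at equal totals (-0.14), for Lpin2 at equal totals (-0.21) and at an equal 75th percentile (-0.0070), and for Agpat3 when centred on adipocyte markers (0.25), so these 3 have no direction here. No paired analysis was possible because each genotype had 1 library, and for the same reason no library could be left out.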

Other observations

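Phosphatidate and diacylglycerol are also the starting points of membrane phospholipids. Of 12 genes of that branch 0 reached 2-fold in either direction, 9 had values above WT in Postn-DTR, and the median change was 0.26, which lay within the shifts between scalings. Chpt1, a choline phosphotransferase that uses diacylglycerol, was at 247 and 179, Cdipt, which makes phosphatidylinositol, at 44.8 and 51.3, Chkb, a choline kinase, at 35.0 and 45.7, and Pcyt2, of the ethanolamine branch, at 42.0 and 30.3. The summed FPKM of this branch was 483 in WT and 454 in Postn-DTR, beside 484 and 109 for the DGATs. The branch list also holds enzymes that do not use diacylglycerol, such as Chkb, so these sums do not compare users of the same substrate.

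Genes known to respond to fasting or glucocorticoids were read because Lpin1 is known as such a gene. Of 12 compared 8 were at least 2-fold higher and 0 lower, with a median change of 1.12. Over all genes compared, 3.88% were higher and 3.12% lower. The list was counted under the deposited scaling only, and its median lies near the 2-fold limit, so the count of 8 depends on scaling. Tsc22d3 was at 90.8 and 241, Angptl4 at 132 and 164, Ddit4 at 34.7 and 172, and Fkbp5 at 43.8 and 148. Lpin1, with a change of 0.40, was under the median of this list, which reached from 0.13 to 2.33. Of all genes compared, 17.1% had a higher change than Lpin1. Whether Lpin1 moved with these genes was not tested. Whether the feeding state of the mice differed was not stated in the sources used here.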
